A study of Mus musculus with 12 samples.

Results

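UPSMALL and DOWN are 2 of the 3 groups of sorted mouse alveolar macrophages in this study, and their 8 libraries, 4 per group, were chosen by title from 12 in all. The cells came from bronchoalveolar lavage, a saline wash of the airspaces, taken 14 days after bleomycin, an agent that injures the lung and leads to fibrosis. All groups, DOWN included, had received bleomycin, so no library here is from an uninjured lung. The lavage was split by a size filter into a fraction rich in border-associated alveolar macrophages, the cell of the series' title, and a fraction poor in them. Cells were then sorted on side scatter, a measure of granularity, and on BODIPY, a dye of neutral lipid, into high, intermediate and low gates. The labels do not tie UPSMALL or DOWN to a fraction or a gate, so the titles serve as names here. The labels used here name no strain, age or sex, no pooling, and no separate mice for the replicates, so p-values measure the spread between these libraries, which may be technical.

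Resident alveolar macrophages live in the airspace, clear surfactant lipid and carry Siglec-F, the nuclear receptor PPAR-gamma and fatty acid binding protein 4. After lung injury, monocytes that carry Ccr2 enter the lung and become macrophages that acquire the resident markers over time. T cells recognise peptide through a receptor of alpha and beta chains held in the membrane by the CD3 chains. Dendritic cells present that peptide on MHC class II, and a mature dendritic cell uses the receptor Ccr7 to migrate to the lymph node.

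The macrophage label held in both groups. Among macrophage markers, CPM (counts relative to library size, with sizes scaled by TMM factors) of Itgax, the integrin CD11c, were 379, 404, 374 and 334 in UPSMALL and 300, 292, 279 and 322 in DOWN. Pparg, which encodes PPAR-gamma, stood at 51.7, 69.5, 66.4 and 56.0 CPM in UPSMALL and 56.1, 58.8, 68.1 and 53.1 CPM in DOWN. The Pparg libraries of the groups overlapped, and its log2 difference of 0.04 ± 0.12 (SE, n = 4 against 4) was not called (adjusted p = 0.921). Spp1, the secreted protein osteopontin, ranged from 17588 to 38785 CPM in UPSMALL and from 16988 to 23852 CPM in DOWN, and it was not called (log2 0.35 ± 0.19, adjusted p = 0.453).

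Library totals ran from 18442852 to 23282621 counts in UPSMALL and from 18276624 to 21642914 in DOWN. Of 12625 genes that passed the low-count filter, 144 (1.14%) were called at an adjusted p under 0.05 by edgeR's quasi-likelihood test, 75 (0.594%) higher and 69 (0.547%) lower in UPSMALL. The same fit called 17.5% of genes between UPBIG and DOWN and 5.70% between UPBIG and UPSMALL. On library totals alone the split was 61 higher and 96 lower. The main fit did not pair libraries by replicate number. A fit that also took out differences between replicate numbers called 275 genes. The call count depended on single libraries: it was 58 without UPSMALL replicate 1, 85 without UPSMALL replicate 3, and 75, 85 and 65 without DOWN replicates 1, 2 and 3. UPSMALL replicate 4 and DOWN replicate 4 stood apart from the others on the second principal component of the 8 libraries, which held 18.5% of the variance. Without both of them 139 genes were called, 82 of which were among the 144.

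Genes lower in UPSMALL had a median log2 fold change of -2.30, and 52 of the 69 differed by over 2-fold. Genes higher in UPSMALL had a median of 1.08, and 41 of the 75 differed by over 2-fold. In DOWN, 32 of the 69 lower genes averaged under 10 CPM, and 24 passed the low-count filter only because of the DOWN libraries, so their median also reflects the filter. In UPSMALL, 23 of the 75 higher genes averaged under 10 CPM. How many of the 75 passed the filter only because of UPSMALL was not counted. Of the 69, 18 were on lists of markers of other cell types, while 1 of the 75 higher genes was. Those lists were chosen with earlier results of these data known. Many of their members, such as 13 of 23 tested T cell genes, passed the filter only because of DOWN, so the contrast only describes the lists. The plot of every tested gene shows these low-level falls at its lower left.

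**Figure D1:**
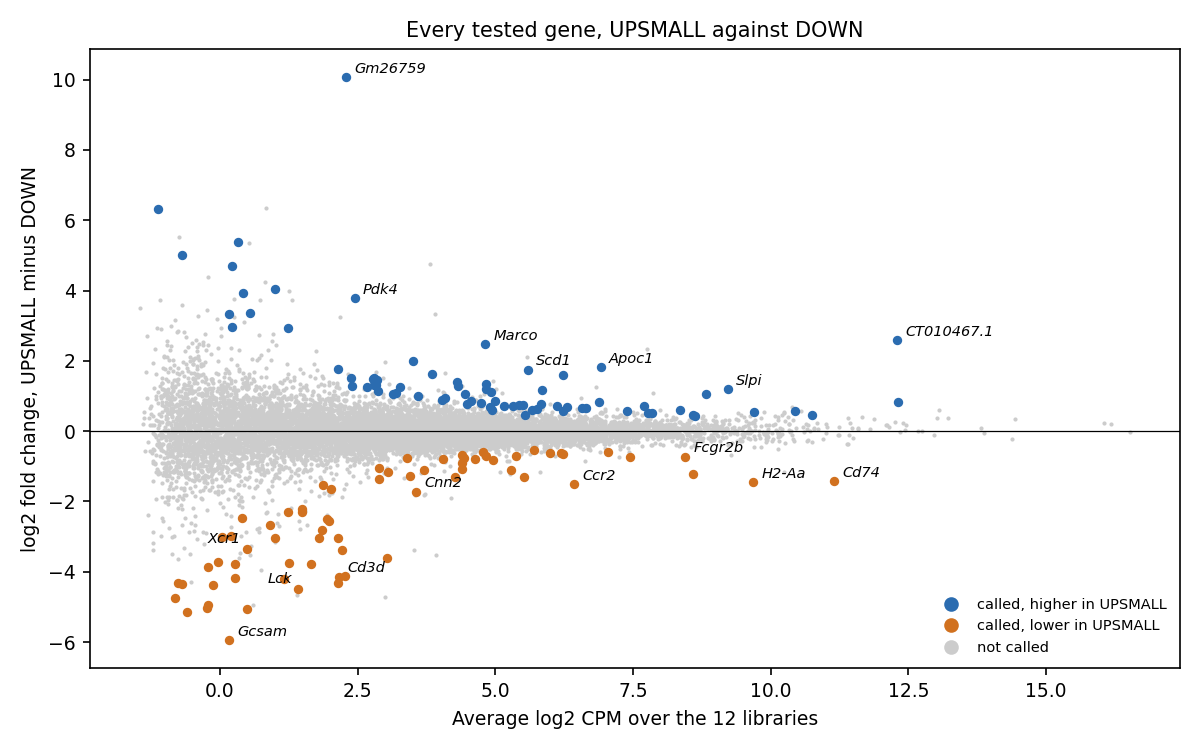
Each point is 1 of 12625 tested genes, with the average log2 CPM over the 12 libraries on the x axis and the log2 fold change, UPSMALL minus DOWN, on the y axis. The 75 genes called higher are blue, the 69 called lower orange and the rest grey; the value of Gm26759, with 0 counts in DOWN, is fitted and is no measured fold.

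Among 23 tested T cell genes, 9 were called lower in UPSMALL and 0 higher, against 0.547% and 0.594% of all tested genes. The constant chain of the T cell receptor beta locus, Trbc2 (mm10 chromosome 6, 41546730 to 41548352), had 0.691, 0.700, 1.07 and 0.441 CPM in UPSMALL and 14.9, 6.79, 15.9 and 12.8 CPM in DOWN. Every DOWN library was above every UPSMALL library, as for 4.38% of all tested genes (3.87% had the reverse order), and the log2 fold change was -4.11 ± 0.42 (SE, adjusted p = 2.98e-05). Cd3d, a signalling chain of the receptor complex, had 0.425, 0.849, 1.25 and 0.110 CPM in UPSMALL and 17.4, 6.36, 14.4 and 8.06 CPM in DOWN. Its groups did not overlap either (log2 -4.14 ± 0.52, adjusted p = 0.000471). In sorted bulk cells, fewer T cells and less T cell RNA per cell cannot be told apart.

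The receptor alpha constant chain Trac fell by 4.20 ± 0.54 on the log2 scale (adjusted p = 0.000471), from 3.23 to 8.22 CPM in DOWN to 0.178 to 0.450 CPM in UPSMALL. Lck, the kinase that starts receptor signalling, had 2.94 to 12.7 CPM in DOWN and 0.0734 to 0.550 CPM in UPSMALL (log2 -4.49 ± 0.59, adjusted p = 0.000492). Cd8a, the co-receptor of cytotoxic T cells, had 4.16, 0.481, 4.06 and 2.97 CPM in DOWN and at most 0.319 CPM in UPSMALL (log2 -4.19 ± 0.78, adjusted p = 0.0118). The calls of Trbc2, Cd3d, Trac, Lck and Cd8a held in each of the 8 fits that left out 1 library, but limma-voom did not call Cd8a (adjusted p = 0.150).

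Cd3g was also lower (log2 -3.39 ± 0.64, adjusted p = 0.0223), and this call ended without UPSMALL replicate 1 (adjusted p = 0.0809) or UPSMALL replicate 3 (adjusted p = 0.0639), while its log2 fold change was -4.16 without UPSMALL replicate 2. With the 8 libraries alone edgeR did not call Cd3g (adjusted p = 0.0919). Cd3e, read as the classic T cell marker, was at 0, 0.05, 0.267 and 0.0367 CPM in UPSMALL and 0.779, 0.722, 1.37 and 1.46 CPM in DOWN. Its groups did not overlap, but it missed the threshold (log2 -3.50 ± 0.94, adjusted p = 0.0799). Cd4, the co-receptor of helper T cells, overlapped between the groups, at 0.534 to 1.43 CPM in UPSMALL and 1.25 to 2.16 CPM in DOWN (log2 -1.04 ± 0.51, adjusted p = 0.396).

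Of the 30 genes on the T cell list, those 23 were tested, 13 of them only because of the DOWN libraries. Their median log2 fold change was -3.39, against -0.00 over all tested genes; since the filter admitted many of them through DOWN, the count and the median only describe the list. The other 3 called members were Trbc1, the second beta constant chain (log2 -2.67), Ctla4, an inhibitory receptor (-5.04), and Tcf7, a transcription factor of naive and memory T cells (-4.37). Their calls rested on more libraries: Trbc1 ended without UPSMALL replicates 1, 3 or 4 or DOWN replicates 1 or 3 (adjusted p from 0.0614 to 0.141). Ctla4 ended without any 1 of UPSMALL replicates 1 to 3 or DOWN replicates 1 or 3 (0.0607 to 0.108), and Tcf7 without UPSMALL replicates 1 or 2 or DOWN replicate 3 (0.0501 to 0.186). Their log2 fold changes reached -3.39 for Trbc1 without UPSMALL replicate 2, -4.26 for Ctla4 without DOWN replicate 1 and -5.66 without UPSMALL replicate 4, and -3.26 for Tcf7 without DOWN replicate 3. Limma-voom did not call Trbc1 (adjusted p = 0.0692), Ctla4 (0.0548) or Tcf7 (0.0981). Cd2 and Il7r, which are on the list, did not follow it: their summed level was 65.6 to 111 CPM in UPSMALL, 74.6 to 124 CPM in DOWN and 107 to 170 CPM in UPBIG.

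Counted together, the 6 receptor and CD3 chain genes summed to 2.44, 6.00, 4.27 and 1.47 CPM in UPSMALL replicates 1 to 4. In DOWN the sums were 63.4, 24.1, 63.1 and 36.4 CPM, so DOWN replicates 1 and 3 were the highest and DOWN replicate 2 the lowest of that group. UPBIG libraries held 1.99 to 4.04 CPM, within the UPSMALL range. None of the 6 genes was at 0 over a whole group. These 6 are a part of the T cell list. All 30 genes of that list, Cd2 and Il7r included, summed to 84.8 to 131 CPM in UPSMALL and 155 to 311 CPM in DOWN. In UPBIG the 30 summed to 130 to 200 CPM, which overlapped DOWN.

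**Figure D2:**
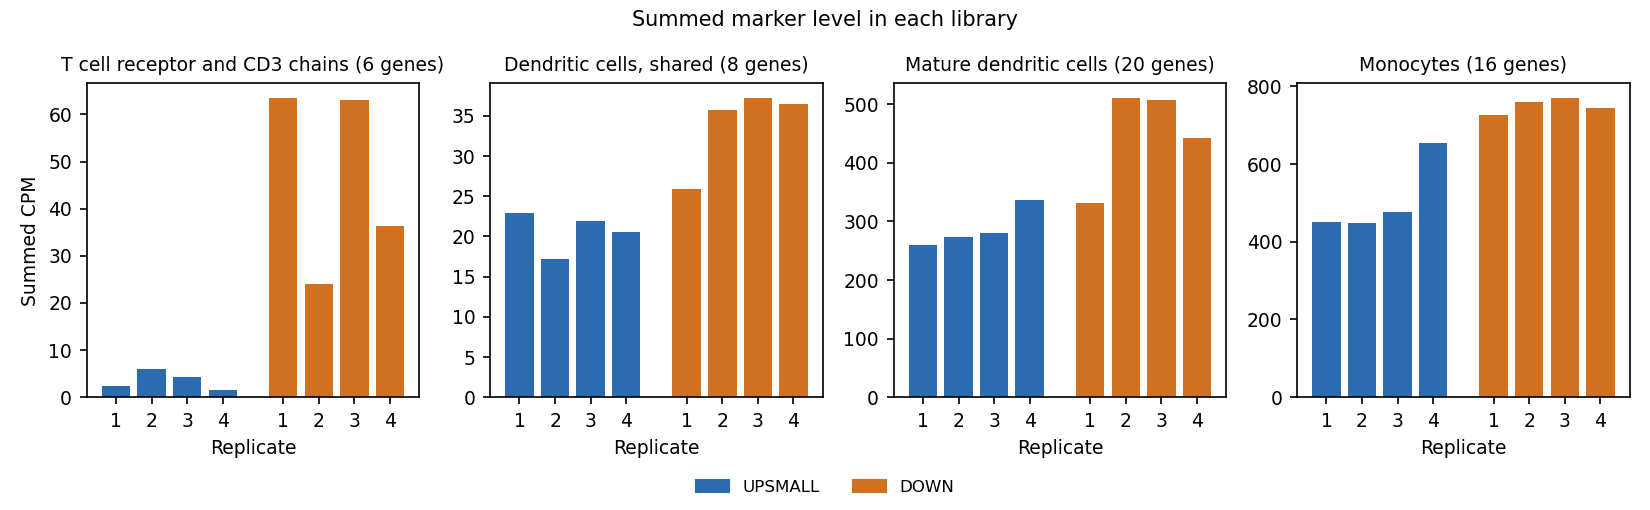
Bars give the summed CPM of a set of markers in each of the 8 libraries, UPSMALL in blue and DOWN in orange, by replicate number. The T cell panel holds 6 of the 30 genes on the T cell list. All 30 summed to 84.8 to 131 CPM in UPSMALL and 155 to 311 CPM in DOWN. The 6 T cell receptor and CD3 chains reach at most 6.00 CPM in UPSMALL and at least 24.1 CPM in DOWN, while monocyte markers lie between 449 and 655 CPM in UPSMALL and between 727 and 769 CPM in DOWN.

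A few called genes that were on none of the marker lists are known from lymphocytes. Ms4a4b, a membrane protein of T cells, had 0.903, 2.05, 2.36 and 1.4 CPM in UPSMALL and 28.4, 8.76, 29.7 and 15.3 CPM in DOWN (log2 -3.61 ± 0.48, adjusted p = 0.00177). DOWN replicates 1 and 3 were again the highest. Stat4, which relays interleukin-12, fell by 3.75 ± 0.61 on the log2 scale (adjusted p = 0.00409), and by 3.08 without DOWN replicate 3. P2ry10, a lysophosphatidylserine receptor of lymphocytes, fell by 3.05 ± 0.51 (adjusted p = 0.00679). These 3 calls held in each of the 8 fits that left out 1 library. Cxcr6, a homing receptor of tissue-resident T cells, had 12.2, 3.32, 23.8 and 7.64 CPM in DOWN and 0.0367 to 1.20 CPM in UPSMALL (log2 -4.32 ± 0.88, adjusted p = 0.0421). Its call held only without UPSMALL replicate 4 or DOWN replicate 2, and adjusted p was 0.0520 to 0.0942 in the other 6 such fits. The log2 value was -3.69 without DOWN replicate 3 and -4.93 without UPSMALL replicate 2.

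No natural killer or cytotoxic list gene was called. Of 16 members of the natural killer and cytotoxic list, 15 had a row and 6 were tested, 4 of them only because of DOWN. EdgeR called 0 of the 6, DESeq2 3 and limma-voom 2. In the edgeR fit 4 had an unadjusted p under 0.05, against 12.9% of all tested genes. Given the filter, these counts only describe the list. Nkg7, a granule protein of killer cells, had 0.425, 2.25, 0.489 and 0.110 CPM in UPSMALL and 34.9, 3.76, 32.9 and 13.4 CPM in DOWN (log2 -4.73 ± 1.15, adjusted p = 0.0975). Klrd1, a chain of the CD94 receptor, was at 3.02 to 5.63 CPM in DOWN and 0.0531 to 0.849 CPM in UPSMALL (log2 -2.87 ± 0.71, adjusted p = 0.0580). Neither gene overlapped between the groups, and 4.38% of all tested genes were likewise higher in every DOWN library. The 15 list genes with a row summed to 18.3 to 62.6 CPM in UPSMALL and 56.5 to 164 CPM in DOWN. These sums overlapped, with UPSMALL replicate 4 at 62.6 CPM and DOWN replicate 4 at 56.5 CPM. Ncr1, the receptor that defines natural killer cells, had 0 counts in UPSMALL and 1 count in DOWN. Off the list, Ctsw, a protease of cytotoxic lymphocytes, was called (log2 -5.05 ± 0.90, adjusted p = 0.00868), and the call ended without DOWN replicate 3 (log2 -4.41, adjusted p = 0.0581). Limma-voom did not call Ctsw (adjusted p = 0.175). Klrb1b, an inhibitory lectin receptor, had 2.97, 3.4, 7.30 and 6.65 CPM in UPSMALL and 13.9, 11.9, 15.2 and 11.8 CPM in DOWN (log2 -1.37 ± 0.30, adjusted p = 0.0294), a call that held in 3 of the 8 fits with 1 library left out.

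B cell transcripts showed no such pattern. Of 16 members 8 were tested; edgeR, DESeq2 and limma-voom each called 0, and 0 had an unadjusted p under 0.05. Cd79a, a chain of the B cell receptor, was at 0, 1.80, 1.29 and 1.47 CPM in UPSMALL and 0, 6.50, 1.17 and 3.21 CPM in DOWN. DOWN replicates 2 and 4 held the most Cd79a, where DOWN replicates 1 and 3 held the most T cell receptor transcripts. Lists of plasma cells, neutrophils, type 2 innate lymphoid cells, alveolar type 2 cells and other epithelium had 0 edgeR calls and 0 calls by DESeq2 and limma-voom. Among them, unadjusted p under 0.05 was reached by 0 of 7, 2 of 6, 0 of 3, 1 of 5 and 2 of 12 tested genes. Over all tested genes this share was 12.9%. The lists of eosinophils, mast cells and basophils and of endothelium, fibroblasts and red cells had no tested member.

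Dendritic cell transcripts were higher in DOWN for some members, at low levels. Xcr1, the chemokine receptor of type 1 conventional dendritic cells, had 0.319, 0.450, 0.311 and 0.110 CPM in UPSMALL and 3.81, 2.46, 4.11 and 1.79 CPM in DOWN. The groups did not overlap (log2 -3.35 ± 0.69, adjusted p = 0.0223). The call ended without UPSMALL replicates 1 or 3 or DOWN replicates 1 or 3 (adjusted p from 0.0604 to 0.0913). Gcsam, a signalling adaptor on the type 1 list, had 4 counts in UPSMALL, all in replicate 4, and 245 in DOWN, a ratio of 64.0 (95% interval 24.7 to 237 from counting error alone). It was called (adjusted p = 0.0191), except without UPSMALL replicates 1 or 3 or DOWN replicate 3 (0.0520 to 0.0916). Clec9a, which senses dead cells for cross-presentation, had 0.850, 0.899, 0.356 and 1.32 CPM in UPSMALL and 2.86, 2.17, 2.94 and 2.26 CPM in DOWN. Its groups did not overlap, but it was not called (log2 -1.57 ± 0.53, adjusted p = 0.181). Itgae, the integrin CD103, missed the threshold narrowly (log2 -2.61 ± 0.64, adjusted p = 0.0562) and passed it without UPSMALL replicate 4 (adjusted p = 0.0411), with the 8 libraries alone (0.0244), by DESeq2 (0.00138) and by limma-voom (0.0264). Over the type 1 list of 13 genes, all tested but 4 only because of DOWN, 2 were called lower and 0 higher, with a median of -0.34. Of all tested genes, 0.547% were called lower.

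Among genes that conventional dendritic cells share, the growth factor receptor Flt3 had 0.531, 0.2, 0.178 and 2.28 CPM in UPSMALL and 1.73, 4.62, 5.48 and 4.57 CPM in DOWN. UPSMALL replicate 4 lay above DOWN replicate 1, and Flt3 was not called (log2 -2.33 ± 0.70, adjusted p = 0.121). Without UPSMALL replicate 4 it was called (log2 -3.74, adjusted p = 0.0111). The transcription factor Zbtb46, which marks the conventional lineage, overlapped, at 0.222 to 1.25 CPM in UPSMALL and 0.385 to 3.85 CPM in DOWN (log2 -1.26 ± 0.74, adjusted p = 0.503). Kmo, an enzyme of tryptophan breakdown, had 0.222 to 0.450 CPM in UPSMALL and 1.54 to 3.38 CPM in DOWN and was the 1 called gene of the 8 on this list (log2 -2.98 ± 0.66, adjusted p = 0.0321). Its call ended in each of the 8 fits that left out 1 library (adjusted p from 0.0504 to 0.124). Of these 8 genes, 6 passed the filter only because of DOWN.

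Cd209a, a lectin of type 2 conventional dendritic cells, was at 5.37, 10.7, 0.304 and 12.5 CPM in DOWN and 0.744, 1.60, 0 and 2.09 CPM in UPSMALL (log2 -2.68 ± 1.31, adjusted p = 0.430). DOWN replicate 3, high in T cell and type 1 transcripts, was the low library for this gene. Nr4a3, an immediate early nuclear receptor, was the 1 called gene of 8 tested on the type 2 list (log2 -2.55 ± 0.55, adjusted p = 0.0328). That call ended without UPSMALL replicates 1 or 3 or DOWN replicates 2, 3 or 4 (adjusted p from 0.0504 to 0.121). Siglech, the marker of plasmacytoid dendritic cells, had 0 counts in UPSMALL and 41 in DOWN, mostly in replicate 3, which is at least 14.3-fold higher in DOWN against a floor of 3 counts over the group. Of 7 tested plasmacytoid genes edgeR, DESeq2 and limma-voom each called 0. In the edgeR fit 2 had an unadjusted p under 0.05, against 12.9% of all tested genes. The log2 fold change was below 0 for 4 of the 7 and above 0 for 3, with a median of -0.08. The 11 plasmacytoid genes with a row summed to 155 to 237 CPM in UPSMALL and 157 to 191 CPM in DOWN.

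For 12 of the 19 tested mature dendritic cell genes, every UPSMALL library was below every DOWN library, against 4.38% of all tested genes. The list was chosen with earlier results known and 5 members were tested only because of DOWN, so this count only describes it. Of the 19, 3 were called lower. Ccr7, the migration receptor, had 1.01, 0.450, 3.25 and 6.50 CPM in UPSMALL and 15.4, 29.3, 52.6 and 23.4 CPM in DOWN. The groups did not overlap, yet edgeR did not call it (log2 -3.39 ± 0.76, adjusted p = 0.0759); without UPSMALL replicate 4 it was called (log2 -4.23, adjusted p = 0.0356). Fscn1, the actin bundler fascin, had 0.691, 0, 1.42 and 1.69 CPM in UPSMALL and 2.51, 8.62, 8.16 and 7.54 CPM in DOWN (log2 -2.79 ± 0.76, adjusted p = 0.0969). Il12b, the interleukin-12 p40 chain, had 1 count in UPSMALL and 188 in DOWN, a ratio of 196 (95% interval 34.8 to 7794), and was left out by the low-count filter. Ccl22, a chemokine of mature dendritic cells, overlapped between the groups (0.934 to 17.3 CPM in UPSMALL, 2.21 to 51.0 CPM in DOWN, adjusted p = 0.544).

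Of the 20 mature dendritic genes 19 were tested, 5 of them only because of DOWN, with 3 called lower, 1 called higher and a median of -1.82. Under the stricter filter, which left 12 of them, the median was -0.64. Serpinb6b, a granzyme inhibitor family member, had 0.441 to 1.87 CPM in UPSMALL and 4.05 to 11.3 CPM in DOWN (log2 -2.49 ± 0.44, adjusted p = 0.00788), a call that held in each of the 8 fits with 1 library left out. Tnfrsf4, the co-stimulatory receptor OX40, which activated T cells also carry, was lower (log2 -2.30 ± 0.50, adjusted p = 0.0268), a call that held only without UPSMALL replicate 4 or DOWN replicate 2. Zmynd15 was lower as well (log2 -1.63 ± 0.37, adjusted p = 0.0332), and its call held only without DOWN replicate 4. Adjusted p in the other such fits was 0.0522 to 0.125 for Tnfrsf4 and 0.0558 to 0.149 for Zmynd15. Cd200, the ligand of an inhibitory receptor, went the other way, at 19.9, 17.9, 19.3 and 19.8 CPM in UPSMALL and 5.84, 11.7, 11.9 and 6.27 CPM in DOWN (log2 1.11 ± 0.20, adjusted p = 0.0105). It was higher still in UPBIG, at 54.2 to 70.5 CPM. Off the lists, Zfp366, a zinc finger protein of dendritic cells, had 6 counts in UPSMALL, all in replicate 4, and 181 in DOWN (adjusted p = 0.0223). Its call ended without any 1 of UPSMALL replicates 1 to 3 or DOWN replicates 1 or 2 (adjusted p from 0.0521 to 0.0764).

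**Figure D3:**
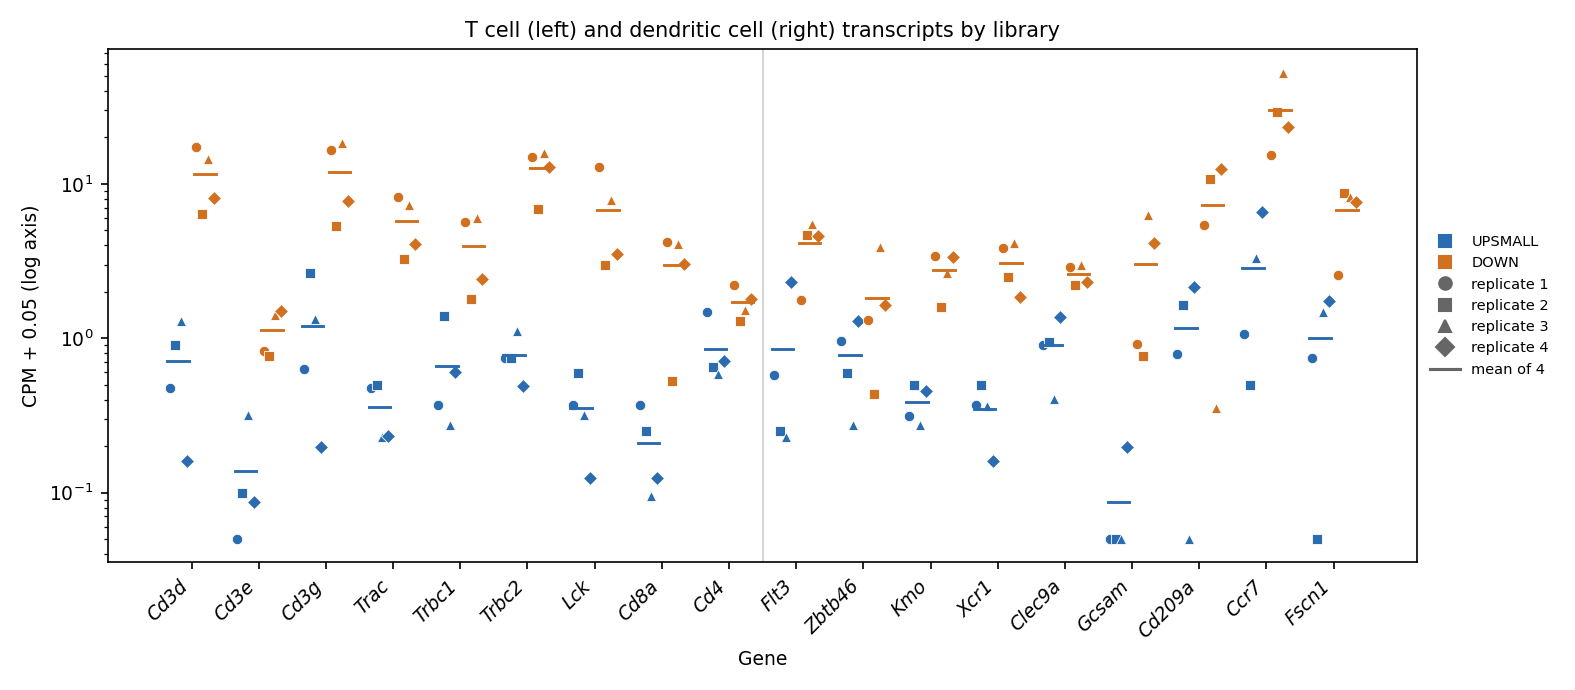
CPM + 0.05 on a log axis for 9 T cell genes (left) and 9 dendritic cell genes (right); each symbol is 1 library, its shape the replicate number, and bars are means of 4. Cd3d and Trbc2 separate the groups fully, while Zbtb46, Flt3 and Cd209a overlap, the last through DOWN replicate 3 at 0.304 CPM.

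Of the 16 MHC class II genes tested, 2 of them only because of DOWN, 3 were called lower in UPSMALL and 0 higher, with a median of -0.83. Of all tested genes, 0.547% were called lower. The count of class II genes called was 1 without UPSMALL replicate 4, DOWN replicate 2 or DOWN replicate 3, and 0 without replicate 4 of both groups. H2-Aa, the alpha chain of I-A (chromosome 17, 34282744 to 34287823, minus strand), had 324, 697, 896 and 566 CPM in UPSMALL and 1271, 1905, 2136 and 1488 CPM in DOWN. H2-Eb1, the beta chain of I-E, had 194, 390, 443 and 280 CPM in UPSMALL and 608, 804, 940 and 697 CPM in DOWN. Cd74, the invariant chain that guides class II to the endosome, had 1230, 2007, 2761 and 942 CPM in UPSMALL and 3854, 5094, 5472 and 4165 CPM in DOWN. In all 3 genes every DOWN library was above every UPSMALL library, an order that 4.38% of all tested genes had. Replicate 3 was the highest in both groups for these 3 genes.

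The log2 fold changes were -1.45 ± 0.27 for H2-Aa (adjusted p = 0.0224), -1.22 ± 0.22 for H2-Eb1 (adjusted p = 0.0161) and -1.42 ± 0.29 for Cd74 (adjusted p = 0.0357). The H2-Eb1 call ended without UPSMALL replicate 4 (adjusted p = 0.0557). The H2-Aa call ended without UPSMALL replicates 2 or 4 or DOWN replicates 2 or 3 (0.0607 to 0.0810), and the Cd74 call held only without UPSMALL replicates 3 or 4 (0.0522 to 0.101 in the other 6 fits). With replicate 4 of both groups left out, none of the 3 passed (adjusted p = 0.120, 0.0941 and 0.0705). EdgeR did not call Cd74 with the 8 libraries alone (0.0682). Without a low-count filter it called neither Cd74 (0.0797) nor H2-Aa (0.0537). H2-Ab1, the I-A beta chain, missed the threshold (log2 -1.15 ± 0.28, adjusted p = 0.0759) and was called in 0 of the 8 fits that left out 1 library. It was called by DESeq2 (0.00912), by limma-voom (0.0191) and on library totals alone (0.0380). Ciita, the class II transactivator, also missed it (log2 -0.87 ± 0.29, adjusted p = 0.178) and was called by none of the alternatives. The peptide exchange chains H2-DMb1 (log2 -0.59 ± 0.15, adjusted p = 0.0606, and 0.0432 without UPSMALL replicate 2) and H2-DMa (log2 -0.44 ± 0.14, adjusted p = 0.157) differed less. DESeq2 (0.0131) and limma-voom (0.0496) called H2-DMb1. In UPBIG, H2-Aa stood at 116 to 173 CPM and Cd74 at 342 to 530 CPM.

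Class II promoters are known for a shared module that ends in the Y box, bound by NF-Y, through which Ciita acts. Windows of 300 bases, with 250 before the start, were found in RefSeq (GRCm38.p6) for 12 of the 16 class II list members, with 2 windows for H2-DMa. Reading both strands, the Y box letters CTGATTGG stood in 4 of these 12 members and the shorter TGATTGG, which the longer motif contains, in 8. In Rfx5 the shorter form stood on the reverse strand only. Over all 32851 windows, counted by window and not by gene, the shares were 4.10% and 7.82%. A match describes letters and not a bound site. The sequences of 2 called genes and of the uncalled H2-Ob (log2 -2.31, adjusted p = 0.220) are shown because they carry this element, in capitals, on the strand of the gene and upstream of its start, at chr17:34287844-34287933 (minus strand), chr17:34305746-34305835 (plus strand) and chr17:34238786-34238875 (plus strand).
H2-Aa: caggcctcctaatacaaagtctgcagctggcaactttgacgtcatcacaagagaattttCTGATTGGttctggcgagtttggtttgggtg
H2-Eb1: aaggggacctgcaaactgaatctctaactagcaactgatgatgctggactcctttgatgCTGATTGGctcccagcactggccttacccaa
H2-Ob: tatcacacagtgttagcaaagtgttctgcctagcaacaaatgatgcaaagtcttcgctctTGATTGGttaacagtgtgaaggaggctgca
The element began 51, 62 and 59 bases before the start in H2-Aa, H2-Eb1 and H2-Ob; H2-Ob held the shorter form.

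Summed levels of other cells' markers are given beside the class II genes. The level of the 8 shared dendritic genes was 22.9, 17.1, 22 and 20.6 CPM in UPSMALL and 25.8, 35.8, 37.2 and 36.5 CPM in DOWN, with no gene at 0 in either group. The 13 type 1 genes summed to 358 to 445 CPM in UPSMALL and 398 to 460 CPM in DOWN, and the 20 mature genes to 261 to 337 CPM and 331 to 510 CPM; macrophages also express some of these genes. DOWN replicate 1 was the lowest DOWN library for H2-Aa, H2-Eb1, Cd74 and the shared and mature dendritic sums, and the highest for T cell receptor and CD3 chains. Within UPSMALL, replicate 1 had the lowest H2-Aa and the highest shared dendritic sum, and replicate 4 the lowest Cd74 and the highest type 1 and mature sums. The part of dendritic cells, T cells or monocytes in the class II difference was not tested.

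Monocyte-associated genes were lower in UPSMALL for some members. Ccr2, the receptor by which monocytes leave the bone marrow, had 36.1, 45.6, 78.7 and 97.1 CPM in UPSMALL and 169, 180, 202 and 186 CPM in DOWN. The groups did not overlap, and UPSMALL spread more than DOWN (log2 -1.51 ± 0.28, adjusted p = 0.0224). The call ended without UPSMALL replicate 2 or DOWN replicates 1, 2 or 3 (adjusted p from 0.0522 to 0.0721). Ccr2 was at 7.83 to 14.2 CPM in UPBIG. Plac8, a monocyte protein that lymphocytes also express, had 14.3, 2.55, 12.9 and 2.64 CPM in DOWN, where replicates 1 and 3 were high as for T cell chains, and 0.159 to 1.30 CPM in UPSMALL (log2 -3.79 ± 0.82, adjusted p = 0.0425). Its call held only without UPSMALL replicate 2 or DOWN replicates 2 or 4, with adjusted p of 0.0822 to 0.129 in the other 5 fits, and its log2 value was -4.51 without UPSMALL replicate 2. Plac8 was not called by limma-voom (adjusted p = 0.111) or by edgeR with the 8 libraries alone (0.0758). Ly6c2, the antigen of classical monocytes, overlapped, at 8.12 to 17.8 CPM in UPSMALL and 8.86 to 30.7 CPM in DOWN (log2 -0.96 ± 0.52, adjusted p = 0.478). The fractalkine receptor Cx3cr1 had 21.4, 12.0, 22.1 and 13.6 CPM in UPSMALL and 37.0, 28.5, 31.2 and 30.6 CPM in DOWN without being called (log2 -0.88 ± 0.25, adjusted p = 0.0991).

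Of the 16 monocyte genes, all tested but 2 only because of DOWN, 2 were called lower and 0 higher, with a median of -0.39. Of all tested genes, 0.547% were called lower. Ccr2 was also the 1 called gene among 23 tested markers of monocyte-derived macrophages, whose median was -0.06. Of the 27 tested chemokine and receptor genes 3 were called lower, Ccr2 and Cxcr6 among them, and 0 higher, with a median of -0.27. The paired ion channel genes Tmem176a and Tmem176b, known in monocytes and dendritic cells, each had a log2 fold change of -1.32 (SE 0.24 and 0.17, adjusted p = 0.0118 and 0.000492). Tmem176b had 32.3, 38.9, 47.4 and 27.3 CPM in UPSMALL and 83.8, 86.3, 114 and 79.7 CPM in DOWN. Emb, the adhesion protein embigin, fell by 0.74 ± 0.12 on the log2 scale (adjusted p = 0.00409), and these 3 calls held in each of the 8 fits. Fn1, fibronectin, had 945 to 1586 CPM in UPSMALL and 1743 to 1906 CPM in DOWN and was not called (log2 -0.50 ± 0.14, adjusted p = 0.0921). It was called without UPSMALL replicate 4 (adjusted p = 0.0289), and also by DESeq2 (0.0248) and limma-voom (0.0262).

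Fc and complement genes moved in both directions. Fcgr2b, the inhibitory receptor for IgG, had 282, 380, 360 and 381 CPM in UPSMALL and 619, 629, 582 and 484 CPM in DOWN (log2 -0.72 ± 0.12, adjusted p = 0.00656). Fcgr4, an activating receptor for IgG, had 168, 184, 153 and 183 CPM in UPSMALL and 124, 92.4, 126 and 79.1 CPM in DOWN (log2 0.71 ± 0.14, adjusted p = 0.0192). Neither overlapped between the groups, so the inhibitory receptor was lower and the activating one higher in UPSMALL. The Fcgr2b call held in each of the 8 fits with 1 library left out, and the Fcgr4 call ended without DOWN replicate 2 (adjusted p = 0.0541). Of the 16 tested genes of this list, 1 was called higher and 2 lower, with a median of -0.16.

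**Figure D4:**
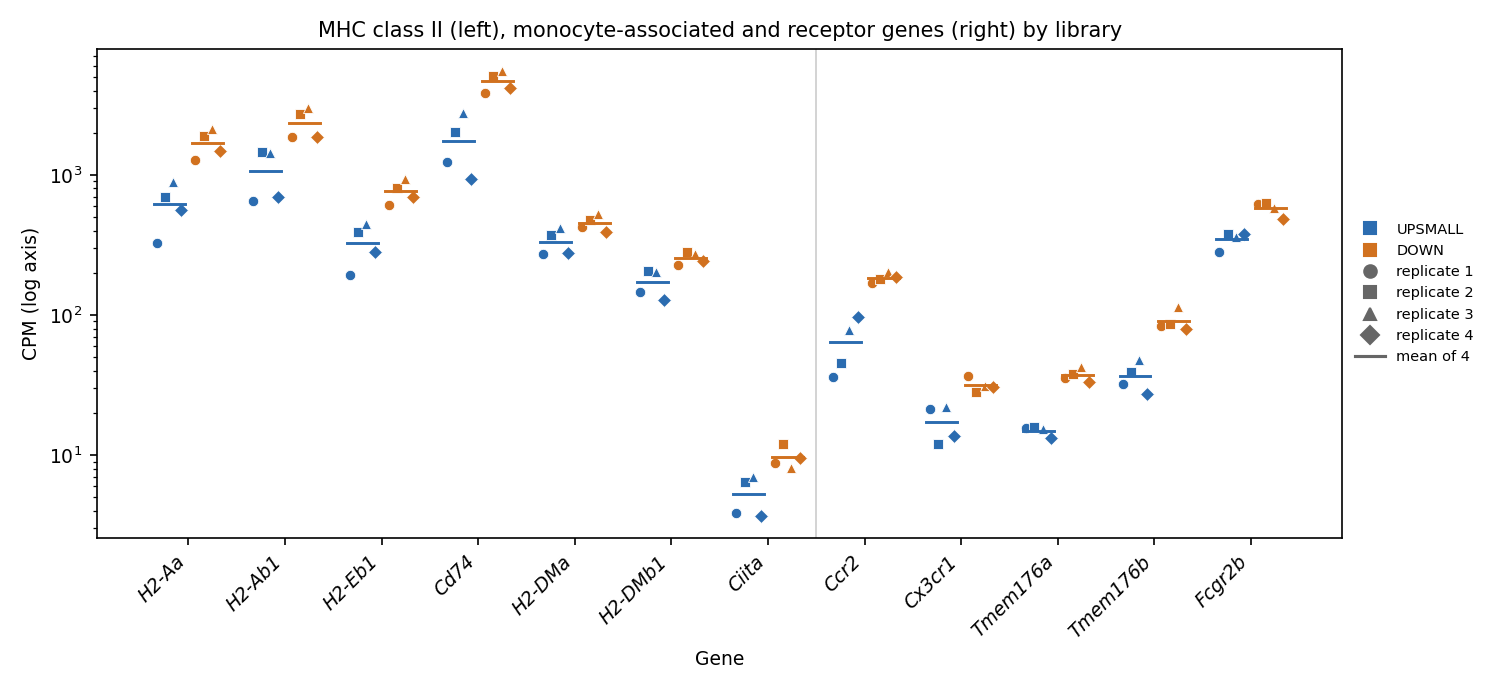
CPM on a log axis for 7 MHC class II genes (left) and 5 monocyte-associated and receptor genes (right); each symbol is 1 library, its shape the replicate number, and bars are means of 4. H2-Aa lies between 324 and 896 CPM in UPSMALL and between 1271 and 2136 CPM in DOWN, and Ccr2 reaches at most 97.1 CPM in UPSMALL against at least 169 CPM in DOWN.

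Of the 30 tested genes of resident alveolar macrophages, 6 were called higher in UPSMALL and 0 lower, with a median of 0.38. Of all tested genes, 0.594% were called higher. The count of resident genes called was 3 without any 1 of UPSMALL replicates 1, 2 or 3 or DOWN replicate 2, and 1 at a minimum fold of 1.5. Marco, a scavenger receptor for particles and bacteria (chromosome 1, 120474538 to 120505024), had 29.0, 40.3, 44.7 and 62.4 CPM in UPSMALL and 4.07, 11.4, 8.42 and 8.11 CPM in DOWN. The groups were far apart (log2 2.47 ± 0.33, adjusted p = 0.00287), and UPBIG, at 22.1 to 44.0 CPM, overlapped UPSMALL. Ear1, an eosinophil-associated ribonuclease of alveolar macrophages, had 62.7, 43.6, 53.8 and 45.6 CPM in UPSMALL and 21.0, 25.3, 28.8 and 16.4 CPM in DOWN (log2 1.17 ± 0.16, adjusted p = 0.000637). Slpi, a secreted protease inhibitor, was higher by 1.19 ± 0.15 (adjusted p = 0.000471), at 494 to 630 CPM against 202 to 332 CPM. The scavenger receptor Colec12 was higher by 1.34 ± 0.19 (adjusted p = 0.00130). The calls of these 4 genes held in each of the 8 fits that left out 1 library.

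Fabp4, the fatty acid binding protein, had 295, 311, 340 and 303 CPM in UPSMALL and 84.8, 171, 152 and 198 CPM in DOWN (log2 1.05 ± 0.20, adjusted p = 0.0223). Its groups did not overlap, and its call held only without DOWN replicates 1, 2 or 4 (0.0565 to 0.0721 in the other 5 fits). Siglecf, the sialic acid lectin that marks resident cells, had 27.6, 27.6, 36.5 and 23.8 CPM in UPSMALL and 16.6, 17, 23.7 and 15.0 CPM in DOWN. The highest DOWN library lay just under the lowest UPSMALL library, and the call (log2 0.68 ± 0.16, adjusted p = 0.0465) held only without UPSMALL replicate 4 or DOWN replicate 3 (0.0772 to 0.133 in the other 6 fits). Plet1, an epithelial-type surface protein of alveolar macrophages (log2 0.61 ± 0.12, adjusted p = 0.0191), ended without UPSMALL replicates 1 or 3 or DOWN replicate 2 (0.0501 to 0.0598). Ctsk, the protease cathepsin K (log2 0.54 ± 0.11, adjusted p = 0.0224), ended without UPSMALL replicate 2 or DOWN replicates 2 or 3 (0.0581 to 0.0676). Pparg and Itgax (log2 0.32 ± 0.10, adjusted p = 0.135) were among the resident genes not called, and Car4, a carbonic anhydrase of resident cells, overlapped (95.4 to 195 CPM in UPSMALL, 64.6 to 116 CPM in DOWN).

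Lipid-handling genes that were called were higher in UPSMALL. Scd1, the enzyme that makes monounsaturated fatty acids, had 8.87, 7.90, 10.1 and 11.8 CPM in UPSMALL and 2.08, 3.37, 3.30 and 2.78 CPM in DOWN (log2 1.75 ± 0.17, adjusted p = 1.77e-05). Apoc1, an apolipoprotein induced by liver X receptors, had 39.7, 37.6, 41.8 and 51.8 CPM in UPSMALL and 13.7, 15.1, 10.1 and 9.71 CPM in DOWN (log2 1.81 ± 0.19, adjusted p = 5.09e-05). Mgll, which frees fatty acid from monoglyceride, had 58.9, 46.1, 53.3 and 36.9 CPM in UPSMALL and 16.1, 18.3, 13.4 and 17.2 CPM in DOWN (log2 1.59 ± 0.15, adjusted p = 1.77e-05). For all 3 genes every UPSMALL library was above every DOWN library, and UPBIG was higher again: 121 to 147 CPM for Scd1, 211 to 381 CPM for Apoc1 and 143 to 190 CPM for Mgll.

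Pdk4, the kinase that turns off pyruvate dehydrogenase when fat is burned, had 119 counts in UPSMALL and 8 in DOWN, a ratio of 14.2 (95% interval 7.00 to 33.8), and was called (adjusted p = 0.00130). Plin3, a coat protein of lipid droplets, was higher by 0.63 ± 0.11 (adjusted p = 0.00717). The calls of Scd1, Apoc1, Mgll, Pdk4 and Plin3 held in each of the 8 fits that left out 1 library. The fitted log2 fold change of Pdk4, 3.79 with all libraries, was 5.16 without DOWN replicate 1, and limma-voom did not call it (adjusted p = 0.0976). Plin2, the main droplet coat of macrophages, had 587, 676, 516 and 394 CPM in UPSMALL and 393, 413, 381 and 409 CPM in DOWN. It was not called (log2 0.45 ± 0.14, adjusted p = 0.155), but was without UPSMALL replicate 4, the library inside the DOWN range (log2 0.58, adjusted p = 0.0250). The cholesterol exporters Abca1 (log2 0.42 ± 0.16, adjusted p = 0.256) and Abcg1 (log2 0.38 ± 0.13, adjusted p = 0.198) overlapped between groups; Abcg1 was called without DOWN replicate 4 (adjusted p = 0.0428). Fabp7, another fatty acid binding protein, was higher (log2 1.51 ± 0.27, adjusted p = 0.0103).

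By list, 2 of 17 tested liver X receptor targets, 2 of 22 lipid droplet genes, 2 of 19 uptake genes, 1 of 14 genes of fatty acid synthesis and 1 of 25 of fatty acid oxidation were called higher, and none lower. Over all tested genes 0.594% were called higher and 0.547% lower. The medians of these lists were 0.37, 0.16, 0.20, -0.03 and 0.12, and Scd1, Fabp4 and Marco are counted on 2 lists each. Of 24 tested genes of cholesterol synthesis, edgeR, DESeq2 and limma-voom called 0, and 1 had an unadjusted p under 0.05.

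**Figure D5:**
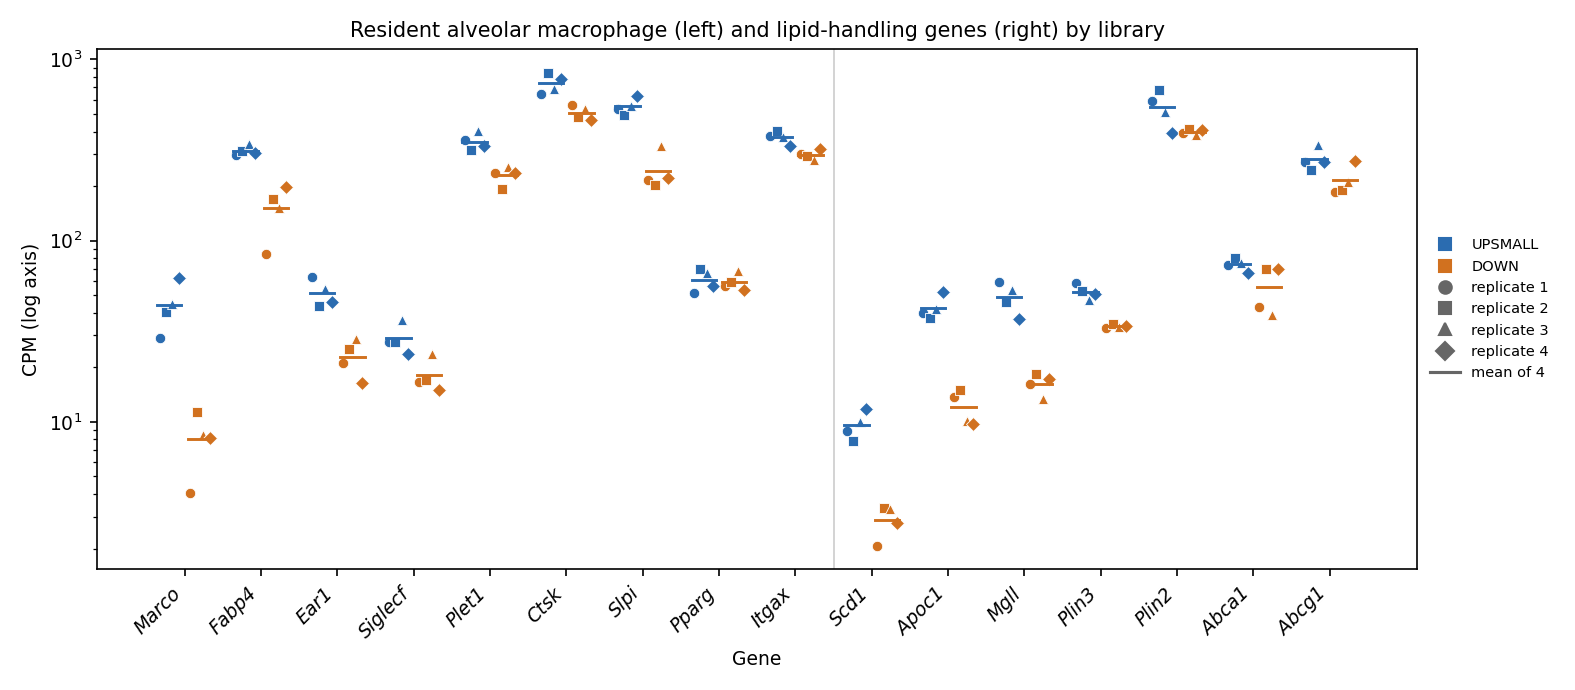
CPM on a log axis for 9 genes of resident alveolar macrophages (left) and 7 lipid-handling genes (right); each symbol is 1 library, its shape the replicate number, and bars are means of 4. Marco, Scd1, Apoc1 and Mgll separate the groups, while Pparg and Abca1 overlap, and Plin2 of UPSMALL replicate 4 lies at 394 CPM beside DOWN.

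Among the largest rises outside these groups, Bmx, a Tec family kinase, had 6.75, 5.85, 6.09 and 6.17 CPM in UPSMALL and 2.68, 2.65, 2.28 and 1.08 CPM in DOWN (log2 1.51 ± 0.29, adjusted p = 0.0146), and the call held in each of the 8 fits with 1 library left out. Wfdc10 (log2 2.00), Trim14 (1.76), Akr1b8 (1.61) and Fam189a2 (1.47) were also called (adjusted p from 0.0294 to 0.0472) and held in 4, 1, 3 and 3 of those fits. Akr1b8, an aldo-keto reductase, was highest in UPSMALL replicate 4 at 29.7 CPM, with the other 3 UPSMALL libraries at 7.54 to 11.1 CPM, and without that library its log2 fold change was 0.98, still called. Its call ended on library totals, with limma-voom, with the stricter filter and with the 8 libraries alone (adjusted p from 0.0503 to 0.0999). Cnn2, the actin-binding calponin 2, was the 1 called gene of 24 tested actin genes, at 5.52, 7.00, 8.32 and 6.94 CPM in UPSMALL and 19.8, 21.2, 22.1 and 28.5 CPM in DOWN (log2 -1.72 ± 0.27, adjusted p = 0.00290).

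No gene of the cell cycle list was called with all libraries. Mki67, the proliferation marker, had 24.6, 24.2, 30.7 and 38.6 CPM in UPSMALL and 16.1, 20.8, 19.8 and 43.3 CPM in DOWN, with DOWN replicate 4 the highest of all 8 (log2 0.24 ± 0.28, adjusted p = 0.789). Of 25 tested genes edgeR called 0, DESeq2 2 and limma-voom 3. In the edgeR fit 11 of the 25 had an unadjusted p under 0.05, against 12.9% of all tested genes. Without DOWN replicate 4, edgeR called 7 of the 25 higher, and 5 without replicate 4 of both groups. The log2 fold change was above 0 for 24 of the 25, with a median of 0.61. Their summed level was 435 to 517 CPM in UPSMALL and 218, 307, 294 and 470 CPM in DOWN, so DOWN replicate 4 lay inside the UPSMALL range. Off the list, cyclin D2 (Ccnd2) was higher, at 25 to 34.2 CPM in UPSMALL and 9.83 to 18.5 CPM in DOWN (log2 1.20 ± 0.19, adjusted p = 0.00378). Its call held in each of the 8 fits. Prc1, which bundles spindle microtubules in cytokinesis, was higher (log2 1.48 ± 0.30, adjusted p = 0.0223), except without UPSMALL replicates 1 or 3 or DOWN replicate 3 (0.0514 to 0.0567). Cdk6, the partner kinase of D cyclins, was higher as well (log2 0.59 ± 0.13, adjusted p = 0.0328), and this held only without UPSMALL replicate 4 or DOWN replicates 2 or 4 (0.0607 to 0.112 in the other 5 fits).

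Other programmes gave few calls. Of 24 tested genes of apoptosis and p53, Zmat3, a p53 target, was higher (log2 0.93 ± 0.17, adjusted p = 0.0103) and the death receptor Fas lower (log2 -0.68 ± 0.16, adjusted p = 0.0465, held only without DOWN replicate 1). Of 33 NRF2 antioxidant genes, thioredoxin (Txn1) was the 1 called, higher by 0.46 ± 0.11 (adjusted p = 0.0412), and it held in 3 of the 8 fits with 1 library left out. Of 18 MHC class I genes, H2-Q6 was the 1 called, lower (log2 -1.08 ± 0.25, adjusted p = 0.0482, held in 2 of the 8 fits); class I genes of the Q region are close copies, and its reads may be shared among them. Of 50 lysosome genes, Ctsk was the 1 called. EdgeR called 0 of 22 scar-associated macrophage genes (5 at an unadjusted p under 0.05, DESeq2 1, limma-voom 0), 0 of 24 NF-kB genes (5, 2 and 2) and 0 of 25 type I interferon genes (4, 1 and 0). It also called 0 of 24 genes of glycolysis and hypoxia (3, 0 and 0), 0 of 24 growth factors and proteases (1, 0 and 0), 0 of 17 integrins (4, 4 and 4) and 0 of 13 co-stimulation genes (5, 2 and 0). At an unadjusted p under 0.05 stood 12.9% of all tested genes.

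Ribosomal RNA reads were higher in UPSMALL. CT010467.1, an rRNA entry on chromosome 17, had 10825, 4234, 3532 and 3176 CPM in UPSMALL and 1005, 918, 849 and 839 CPM in DOWN (log2 2.59 ± 0.43, adjusted p = 0.0224). UPSMALL replicate 1 was the highest, and the call ended without any 1 DOWN library (adjusted p from 0.0578 to 0.0874). The mitochondrial rRNA mt-Rnr2 had 3645 to 5712 CPM in UPSMALL and 2203 to 2884 CPM in DOWN (log2 0.83 ± 0.16, adjusted p = 0.0191), a call that ended without UPSMALL replicate 1 (0.0750) or DOWN replicate 2 (0.0504). The 13 mitochondrially encoded mRNAs had a median of -0.02, with 0 calls by edgeR, DESeq2 and limma-voom and 0 at an unadjusted p under 0.05. UPBIG held 6266 to 14598 CPM of CT010467.1. The part of rRNA content in the other results was not tested.

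Gm26759, an antisense RNA on chromosome 8 (126566970 to 126590988, plus strand), was at 6.85, 3.95, 2.67 and 13.4 CPM in UPSMALL and had 0 counts in each DOWN library. With 633 counts in UPSMALL, it was at least 202-fold higher there, against a floor of 3 counts over the DOWN group. UPBIG libraries held 4.54 to 12.8 CPM. It overlaps Irf2bp2 (126588296 to 126593986, minus strand), a transcriptional co-repressor gene, which had 40.7 to 73.0 CPM in UPSMALL and 54.2 to 75.3 CPM in DOWN and was not called (log2 -0.19 ± 0.16, adjusted p = 0.668). Whether counting used strand is not given here, so reads of overlapping genes on opposite strands could not be assigned by strand.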

How the data were processed

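SMART-Seq libraries were made from lysed sorted cells, per the labels' protocols. Expected counts from RSEM were deposited for each gene, which the authors made from STAR alignments to mm10, per the submitters' processing notes; versions, annotation and strand are not given here. The table holds 26855 genes, 13.8% of its values are not whole, and 26775 identifiers matched a symbol. Coordinates were taken from GENCODE, which held 26808 of the identifiers. Counts were rounded, filtered with filterByExpr (12625 genes kept) and fitted over all 12 libraries with edgeR 4.0.16 in R 4.3.3 (TMM, robust quasi-likelihood F test, group means, Benjamini-Hochberg adjusted p under 0.05 as a call). The fit was tested on simulated data. SEs come from dividing the size of the log2 difference by the root of its F statistic. CPM are comparable between libraries and not between genes of different length. Ratios and floors use summed counts with exact 95% intervals, which cover counting error only, as reads carry no molecular identifiers.

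The comparison and its 41 lists (16 of cell types, 25 of programmes) were chosen with earlier results of these data known, so a list's direction is no independent evidence. Named genes were the 12 largest rises and falls that were called, reached a mean log2 CPM of 2 and had groups without overlap (ribosomal protein genes, mitochondrial genes and predicted genes were skipped); up to 4 called members of each list in each direction with the smallest p; and a set of markers always given. A further 37 were chosen after their values were seen: Trbc1, Cd8a, Cd4, Ctla4, Tcf7, Cd2, Il7r, Ctsw, Stat4, Nkg7, Gzmb, Klrd1, Itgae, Zfp366, Fscn1, Ccl22, Il12b, Tmem176a, Tmem176b, Emb, Fn1, H2-Ab1, H2-DMa, H2-DMb1, Ciita, H2-Ob, Slpi, Car4, Colec12, Abca1, Abcg1, Ccnd2, Cdk6, CT010467.1, mt-Rnr2, Gm26759 and Irf2bp2. Alternatives were DESeq2 1.42.0 and limma-voom 3.58.1, other size factors and filters, a replicate block, a minimum fold, only the 8 libraries, and leaving out each library. A few genes that the rule picked are not reported here.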

Additional observations from a re-analysis of the deposited data

Results flagged for a closer look

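A gap to the nearest library that takes up most of the range is flagged about 1 in 20 times by chance. That rate does not hold near 0 counts, where counts in 1 library alone always give a gap of 1.00, so flags are not compared with it. In 15 of 200 sets of 4 libraries (a named gene in a group), 1 library lay apart from the other 3 by such a gap. In DOWN replicate 3 these were Tcf7 (gap 0.928 of the range), Gzmb, a granzyme (0.957, at 5.63 CPM against 0.385 to 0.613 CPM), Siglech (0.856), Slpi (0.838) and Ncr1 (1.00, from 1 count). DOWN replicate 1 stood out for Klrd1 (0.902) and DOWN replicate 4 for Mki67 (0.83, at 43.3 CPM against 16.1 to 20.8 CPM). UPSMALL replicate 4 stood out for Flt3 (0.832), for Akr1b8 (0.839), and for Gcsam, Zfp366 and Il12b (1.00 each), in which it held all the UPSMALL counts. UPSMALL replicate 1 stood out for CT010467.1 (0.862) and Cd4 (0.859), and UPSMALL replicate 3 for Car4 (0.855, at 195 CPM against 95.4 to 110 CPM).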

How the results depend on the processing

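The 144 calls (75 higher, 69 lower) became 146 with DESeq2-style size factors and 157 on library totals alone. DESeq2 called 393 (202 higher, 191 lower), limma-voom 205 (87 and 118), the fit without a low-count filter 460 of 26549 genes (264 and 196), and a stricter filter 109 of 8699 (68 and 41). A fit to the 8 libraries alone called 147 (62 and 85), of which 115 were among the 144, and a minimum fold of 1.5 left 25 (12 and 13). Leaving out 1 library gave 58 to 171 calls (39 to 102 higher, 19 to 69 lower), fewest without UPSMALL replicate 1. Without replicate 4 of both groups, chosen after seeing the data, there were 139. With 1 library left out, the log2 fold change ran from -0.0619 (without DOWN replicate 4) to 0.445 for Cd2 and from -0.0237 (without UPSMALL replicate 2) to 0.126 for Pparg, both uncalled and above 0 with all libraries. No called gene named here changed direction in any of these fits. Limma-voom ended 12 named calls (adjusted p from 0.0529 to 0.175). These were Trbc1, Cd8a, Ctla4, Tcf7, Cxcr6, Ctsw, Plac8, Pdk4, Trim14, Akr1b8, Fam189a2 and Fas. The edgeR fit to the 8 libraries alone ended 10 (0.0682 to 0.104). These were Cd3g, Cxcr6, Nr4a3, Cd74, Plac8, Siglecf, Akr1b8, Fam189a2, Fas and Txn1. On library totals alone, mean summed levels moved by over 1 SD for type 1 dendritic genes in DOWN (469 CPM), monocytes in DOWN (816 CPM) and alveolar type 2 genes in UPSMALL (112 CPM). The cause of these shifts was not tested.

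Replicate numbers are in the titles. Same-numbered UPSMALL and DOWN libraries correlated at 0.11, 0.14, -0.01 and 0.10 in their deviations from the group means. Each library but replicate 3 correlated best with its own number. The labels state no pairing, so the main fit and its p-values took none into account. Whether the numbers mark a shared day or animal was not tested. With a replicate block 275 genes were called (149 higher, 126 lower). The block called H2-Ab1 (adjusted p = 7.74e-05), H2-DMa (0.0176), H2-DMb1 (0.0309), Cx3cr1 (0.0483) and Fn1 (0.0238), and did not call Cd74 (0.0594), Trbc1 (0.0578), Cxcr6 (0.0839) or Plac8 (0.0529).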
